A study of Bos taurus with 12 samples.

Results

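GDF15 and 8 genes of the stress response driven by the transcription factor ATF4 were followed from bovine myoblasts to myotubes, in expression and in N6-methyladenosine (m6A), the methylation of adenosine inside mRNA. The 9 genes are GDF15, ATF4, ATF3, DDIT3, TRIB3, CHAC1, ASNS, SESN2 and DDIT4, taken by name from a table of 18436 genes, and all 9 were present and expressed above the minimum for testing. The m6A peaks taken by gene name number 15 of 19739 in the myoblast list and 11 of 20790 in the myotube list. GDF15 was chosen by the difference in fold enrichment of its m6A peak between the lists. Its values are therefore given as a description with no test. The other 8 genes were added as textbook members of the same stress response, with earlier results of these data known.

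The cells were primary myoblasts from the longissimus dorsi muscle of newborn Qinchuan cattle, and the study's methods give a single animal as their source. The GM group was harvested while proliferating at 80% confluence in medium with 20% fetal bovine serum. The DM group was harvested at 100% confluence after 4 days of myogenic differentiation in medium with 2% horse serum. Each group has 3 input libraries (RNA-seq) and 3 m6A immunoprecipitated (IP) libraries, 12 in all. Both groups share the base medium, antibiotics and breed. Differentiation, serum, confluence and days in culture change together between GM and DM and cannot be told apart.

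ATF4 is a transcription factor whose protein is made when translation is slowed by phosphorylation of the initiation factor eIF2, which follows amino acid shortage, unfolded protein in the endoplasmic reticulum, mitochondrial damage or viral infection. It switches on genes for amino acid synthesis and uptake, tRNA charging and redox balance, and under longer stress, together with CHOP (the product of DDIT3), genes that favour cell death. GDF15 is a secreted cytokine of the TGF-beta superfamily that is induced by this pathway and by p53, and in muscle it is known as a signal released under mitochondrial stress.

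Expression was measured as FPKM, a read count scaled to transcript length and library size. FPKM summed over genes to between 415740.2 and 434458.3 in the GM inputs and between 386436.5 and 390826.9 in the DM inputs. Of 9 muscle markers 4 rose and 3 fell (44.4% and 33.3%, beside 16.1% and 26.7% of all tested genes). MYH3, the embryonic myosin heavy chain, was at 273 ± 2.74 FPKM in GM and 659 ± 15.0 in DM (mean ± SD, n = 3 each). MYOD1 fell by 1.28 on the log2 scale, and MYMK and DES did not reach an adjusted p under 0.05 (limma, 0.083 and 0.092). The satellite cell factor PAX7 was at 1.08 ± 0.0972 in GM and 0.0624 ± 0.0339 in DM. MYOG was already at 197 ± 8.95 in GM. All 5 proliferation markers fell, and their summed FPKM went from between 79.3 and 89.1 to between 13.3 and 15.8. The 7 fibroblast markers summed to between 13590 and 13830 FPKM in GM and between 13890 and 14660 in DM. Most of this sum came from COL1A1 and COL1A2, at means of 6790 and 5760 in GM. The other markers ran from 2.15 for TCF21 to 531 for DCN in GM, and from 1.68 to 667 in DM. Of these 7, 2 rose and 1 fell (28.6% and 14.3%). The endothelial and the leukocyte markers summed to at most 2.01 FPKM in any library, and adipocyte markers to at most 3.16. The endothelial CDH5 and the macrophage CSF1R were at group means of at most 0.0321. These sums hold 4 of 5 endothelial and 3 of 5 leukocyte markers, without KDR, PTPRC and CD3E. The part of proliferating cells and of fibroblasts in the differences given next was not tested.

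By level, ATF4 stood far above the other members at 610.0 ± 21.4 FPKM in GM, higher than 99.0% of the tested genes when averaged over the 6 libraries. ASNS followed at 128 ± 7.47, then DDIT4 at 83.7 ± 9.44 and DDIT3 at 79.5 ± 2.81, which overlapped each other in GM. TRIB3 was at 36.4 ± 1.60 and SESN2 at 25.5 ± 0.439. ATF3 at 18.7 ± 1.05 and CHAC1 at 17.6 ± 1.01 also overlapped each other in GM. GDF15 was lowest at 6.67 ± 0.0999 (SD, n = 3 for each gene). In DM the order was the same except that DDIT3, at 70.0 ± 2.36, stood above DDIT4, at 44.1 ± 4.30, with no overlap of the libraries.

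**Figure D1:**
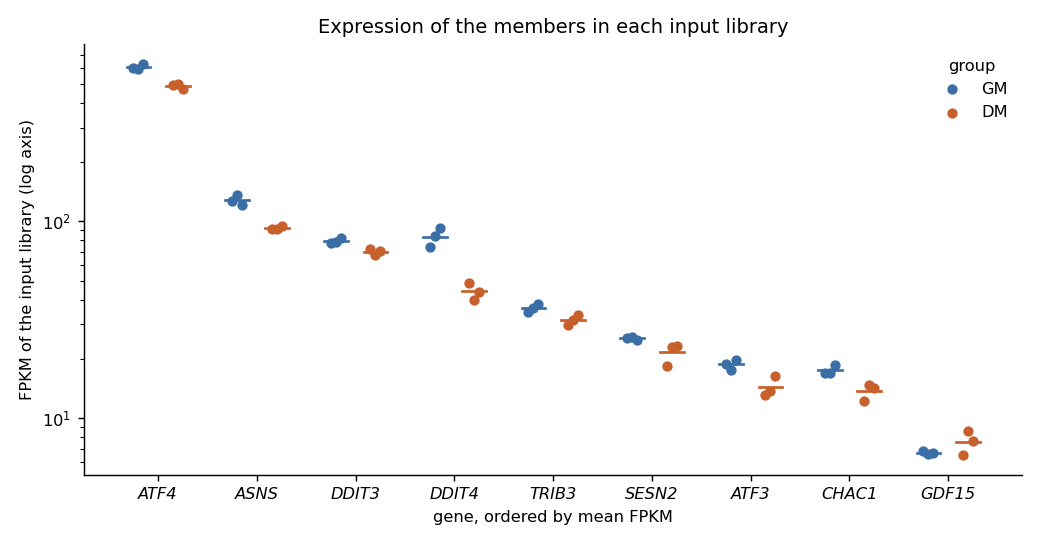
FPKM (log axis) of the 9 genes in the 3 GM and the 3 DM input libraries, each point 1 library and each bar the group mean. The DM points lie below the GM points for every gene except GDF15, whose DM libraries run from 6.48 to 8.55 FPKM around GM libraries at 6.61 to 6.78.

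A gene was taken to have risen or fallen at a Benjamini-Hochberg adjusted p under 0.05 in limma, computed over all 12302 tested genes. Of the 8 members other than GDF15, 7 fell by this rule and none rose, beside 26.7% of all tested genes that fell and 16.1% that rose (42.8% in either direction). The range of the 3 DM libraries lay wholly under the range of the 3 GM libraries for all 8, beside 33.0% of all tested genes (54.1% in either direction, with 21.1% higher). In TPM, and after median-ratio scaling, 5 of the 8 fell, beside 15.9% and 21.8% of all tested genes. Most of these falls were small. The study's thresholds ask for more than 1.5-fold and a p before adjustment under 0.05, with p there from edgeR. When they were applied to the limma p on log2(FPKM + 1), 603 genes were called higher and 858 lower (4.90% and 6.97%, or 11.9% in all), and DDIT4 was the only member called. A pseudocount of 0.1 gave 829 and 1185. On values rescaled to TPM the split over all genes was 1060 higher and 884 lower. The median log2 fold change of all tested genes was −0.05, against 0.06 in TPM, and that of the 8 members was −0.33. In bulk RNA, fewer cells of a type and less RNA per cell cannot be told apart.

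Among the transcription factors, ATF4 gave 602, 594 and 634 FPKM in GM and 491, 497 and 473 in DM. All 3 DM libraries were below all 3 GM libraries. The log2 fold change on log2(FPKM + 1), DM minus GM, was −0.32 (95% interval −0.44 to −0.21, limma, adjusted p = 0.0013), and −0.27 relative to the median of all genes. ATF3, a stress-induced factor downstream of ATF4, gave 18.9, 17.6 and 19.7 FPKM in GM and 13.0, 13.7 and 16.3 in DM. The libraries did not overlap, although the third DM library came close to the GM range. The log2 fold change of ATF3 was −0.37 (−0.56 to −0.17, limma, adjusted p = 0.0094).

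DDIT3, which encodes CHOP, gave 77.6, 78.2 and 82.7 FPKM in GM and 72.2, 67.5 and 70.4 in DM. Its fall was the smallest of the 7, at −0.18 on the log2 scale (−0.30 to −0.06, limma, adjusted p = 0.020). The call was lost in TPM (−0.058, adjusted p = 0.40) and after median-ratio scaling (−0.12, adjusted p = 0.10), while the direction held. It was also lost without the second DM library (−0.15, adjusted p = 0.064) and without the third (−0.18, adjusted p = 0.058). DDIT3 and MARS, a tRNA synthetase gene on the other strand, share 59 bases at their 3′ ends. The study describes its libraries as strand-specific. It does not say whether reads were counted by strand, so reads there may count for either gene.

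TRIB3 encodes a pseudokinase that binds AKT and ATF4 and dampens the response. It gave 34.8, 36.5 and 38.0 FPKM in GM and 29.9, 31.6 and 33.6 in DM, so that the lowest GM library stood just above the highest DM library. The log2 fold change was −0.20 (−0.33 to −0.06, limma, adjusted p = 0.031). As with DDIT3, the call was lost in TPM (−0.075, adjusted p = 0.36) and after median-ratio scaling (−0.13, adjusted p = 0.12). It was lost too without the second GM (adjusted p = 0.075), the third GM (0.055), the first DM (0.12) or the second DM library (0.072), with the direction kept each time.

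Of the metabolic targets, CHAC1, which breaks down glutathione, gave 16.9, 17.0 and 18.7 FPKM in GM and 12.2, 14.7 and 14.1 in DM. The groups did not overlap and the log2 fold change was −0.34 (−0.52 to −0.16, limma, adjusted p = 0.0086). ASNS, the asparagine synthetase, gave 128, 136 and 121 FPKM in GM and 91.2, 91.7 and 94.99 in DM. The DM libraries lay close together and far under the GM libraries. Its log2 fold change was −0.46 (−0.59 to −0.34, limma, adjusted p = 0.00029), a mean 27.8% lower in DM.

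SESN2 and DDIT4 both restrain the growth kinase complex mTORC1, SESN2 as a leucine sensor and DDIT4 (REDD1) through the TSC complex. SESN2 gave 25.6, 25.8 and 25.0 FPKM in GM and 18.4, 23.1 and 23.2 in DM. The first DM library was the low one, and the other two were just under GM. With a log2 fold change of −0.24 (−0.44 to −0.04, limma, adjusted p = 0.057) SESN2 did not pass. Without the first DM library the value was −0.13 (limma, adjusted p = 0.13). DDIT4 gave 73.9, 84.3 and 92.8 FPKM in GM and 48.5, 40.0 and 43.8 in DM. The GM libraries spread more than the DM libraries, yet a wide gap remained between them. Its log2 fold change of −0.91 (−1.13 to −0.69, limma, adjusted p = 0.00015) was the largest among the members, and the GM mean was 1.90-fold the DM mean.

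GDF15 gave 6.78, 6.61 and 6.61 FPKM in GM and 6.48, 8.55 and 7.69 in DM. The first DM library was below all of GM and the other two were above. The mean was 13.5% higher in DM, a log2 fold change of 0.15 and of 0.21 relative to the median of all genes. The DM libraries varied more, with a coefficient of variation of 13.7% against 1.5% in GM. GDF15 was thus the only member whose mean was not lower in DM.

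**Figure D2:**
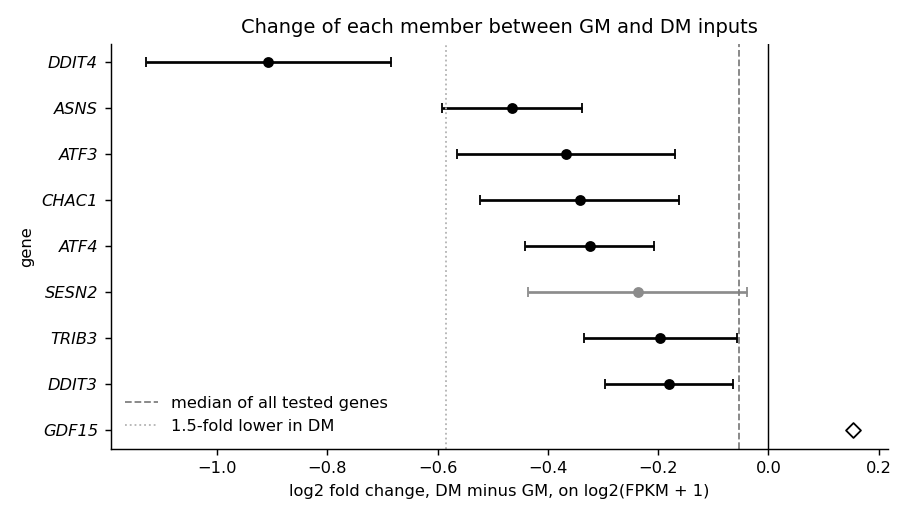
Log2 fold change (DM minus GM, on log2(FPKM + 1)) of the 9 genes, with 95% limma intervals for the 8 that were tested. Black points passed an adjusted p under 0.05 and the grey point (SESN2) did not, the open diamond is GDF15 as a value without a test, and the dashed line is the median of all tested genes (−0.05). DDIT4 lies beyond the dotted line of a 1.5-fold fall.

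A ratio taken inside each library does not depend on how the libraries were scaled. Against ATF4, GDF15 stood at 1.13, 1.11 and 1.04% of its FPKM in GM and at 1.32, 1.72 and 1.63% in DM. The libraries did not overlap in this ratio, while the FPKM of GDF15 itself overlapped and ATF4 was lower in DM. DDIT4 stood at 12.3, 14.2 and 14.6% of ATF4 in GM and at 9.88, 8.04 and 9.26% in DM, again without overlap and in the other direction. DDIT3 moved from between 12.9 and 13.2% to between 13.6 and 14.9%. ATF3, TRIB3, CHAC1, ASNS and SESN2 overlapped between the groups in this ratio. The ratios show unequal change within the set and not which gene of a pair changed. The share of all tested genes that separate in a ratio to ATF4 was not counted.

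Likeness of pattern was measured by Pearson r of log2(FPKM + 1) over the 6 input libraries, as a description of 2 groups of 3 points. The genes most like GDF15 were ENSBTAG00000048783, which has no symbol in the table, with r = 0.973, HGH1 with 0.972, TPST2 with 0.958, ASPSCR1 with 0.954 and TTC38 with 0.953. In all, 7 of 12301 genes were above 0.95 with GDF15. With ATF4, 1190 genes were, and SMTN, TKT, ENSBTAG00000049161, SPSB4 and PAPPA came first. Each of these 5 had a lower mean in DM, as ATF4 did. Between GDF15 and the other members r ran from −0.774 for DDIT3 to 0.0363 for SESN2.

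The wider pathway was read from 12 gene lists, also chosen with earlier results of these data known, of which 133 genes were tested. Of these, 58 fell and 17 rose (43.6% and 12.8%), beside 26.7% and 16.1% of all tested genes, and their median log2 fold change was −0.15 against −0.05. In TPM 37 fell and 28 rose, beside 15.9% and 23.1% of all genes.

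The serine, glycine and one-carbon enzymes had the lowest median of the 12 lists. All 8 enzymes of serine, glycine, proline and one-carbon synthesis fell (5 of 8 in TPM), with a median log2 fold change of −0.57. PHGDH, the entry enzyme of serine synthesis, was at 214 ± 8.79 FPKM in GM and 104 ± 0.584 in DM (log2 fold change −1.03, limma, adjusted p = 1.8e-06). The next enzymes of that route, PSAT1 and PSPH, fell by 0.81 and 0.93 on the log2 scale. SHMT2, which makes glycine in mitochondria, fell by 0.64. Among 8 amino acid transporters 6 fell (3 in TPM) and none rose, with a median of −0.26. SLC7A5, the carrier of leucine and other large neutral amino acids, was at 32.9 ± 1.76 FPKM in GM and 15.9 ± 0.860 in DM (−1.0, limma, adjusted p = 7.5e-06). The cystine carrier SLC7A11 fell by 0.83. Of 13 genes of tRNA charging and export 11 fell (6 in TPM) and none rose (median −0.29), led by SARS at −0.61 and IARS at −0.60. Of all tested genes 26.7% fell and 16.1% rose (15.9% and 23.1% in TPM). All n are 3 per group.

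Other partners and targets of ATF4 and CHOP went both ways, with 6 of 17 lower and 5 of 17 higher (5 and 7 in TPM). These are 35.3% and 29.4%, beside 26.7% and 16.1% of all tested genes. STC2, a secreted glycoprotein, was at 38.9 ± 2.06 FPKM in GM and 15.4 ± 1.14 in DM (n = 3 each, −1.28, limma, adjusted p = 3.4e-06). CTH, of cysteine synthesis, fell by 0.74, and ERO1A, an oxidase of the endoplasmic reticulum, fell by 0.70. NUPR1, a small stress-induced chromatin protein, rose from 42.2 ± 3.30 to 69.2 ± 2.28 FPKM (n = 3 each, 0.70, limma, adjusted p = 6.5e-05). The eIF2 kinases, eIF2 and eIF2B subunits and their partners gave log2 fold changes between −0.28 and 0.13: 5 of 15 fell and none rose (33.3% and 0%, beside 26.7% and 16.1% of all tested genes). After median-ratio scaling 4 fell and 2 rose, and in TPM none fell and 2 rose. The 5 were EIF2AK2, EIF2AK4, EIF2S2, EIF2B5 and DELE1, named here after their values were seen. Calls of the kinases were also lost without single libraries. For EIF2AK2 these were the first or second GM or the second DM or the third DM library (limma, adjusted p up to 0.14), and for EIF2AK4 the first GM or the first DM library (up to 0.060).

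Chaperones and sensors of the ATF6 and XBP1 arms respond to unfolded protein beside ATF4. Of these, 12 of 19 fell and 1 rose (median −0.29). The shares were 63.2% and 5.26%, beside 26.7% and 16.1% of all tested genes, and in TPM 10 of 20 fell and 2 rose. PDIA4 fell by 0.82, CALR by 0.80, PDIA6 by 0.74 and SDF2L1 by 0.64 on the log2 scale. Of 8 mitochondrial chaperones and proteases 4 fell (50.0%) and none rose, in TPM too, led by the matrix protease LONP1 at −0.63. Of 14 targets of p53, which also induces GDF15, 3 rose and 3 fell (21.4% each, beside 16.1% and 26.7% of all tested genes), and in TPM 5 rose and 2 fell. MDM2, the ubiquitin ligase of p53, was the only one past 1.5-fold (21.1 ± 1.95 to 32.7 ± 2.54 FPKM, n = 3 each, 0.61, limma, adjusted p = 0.00055). Around SESN2 and DDIT4, 3 of 12 genes of the mTORC1 pathway rose and none fell (25.0% and 0%, beside 16.1% and 26.7% of all tested genes). They were RHEB at 0.29, TSC2 at 0.25 and TSC1 at 0.16, also named after their values were seen. In TPM the same 3 rose and none fell, a share near the 23.1% of all tested genes that rose there (15.9% fell). TSC1 did not pass without any 1 of the 6 libraries (limma, adjusted p up to 0.11), nor TSC2 without the first or second GM or the first DM library (up to 0.059). Of 4 tested paralogs of the members 1 fell (25.0%, beside 26.7% of all tested genes), TRIB1 at −0.35 (limma, adjusted p = 0.047). It did not pass in TPM (−0.28, adjusted p = 0.15), where the list had no fall and 1 rise, nor without the first or second GM, the first DM or the third DM library (limma, adjusted p up to 0.12). RET, the co-receptor of GDF15, was at most 0.0218 FPKM in the group means.

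**Figure D3:**
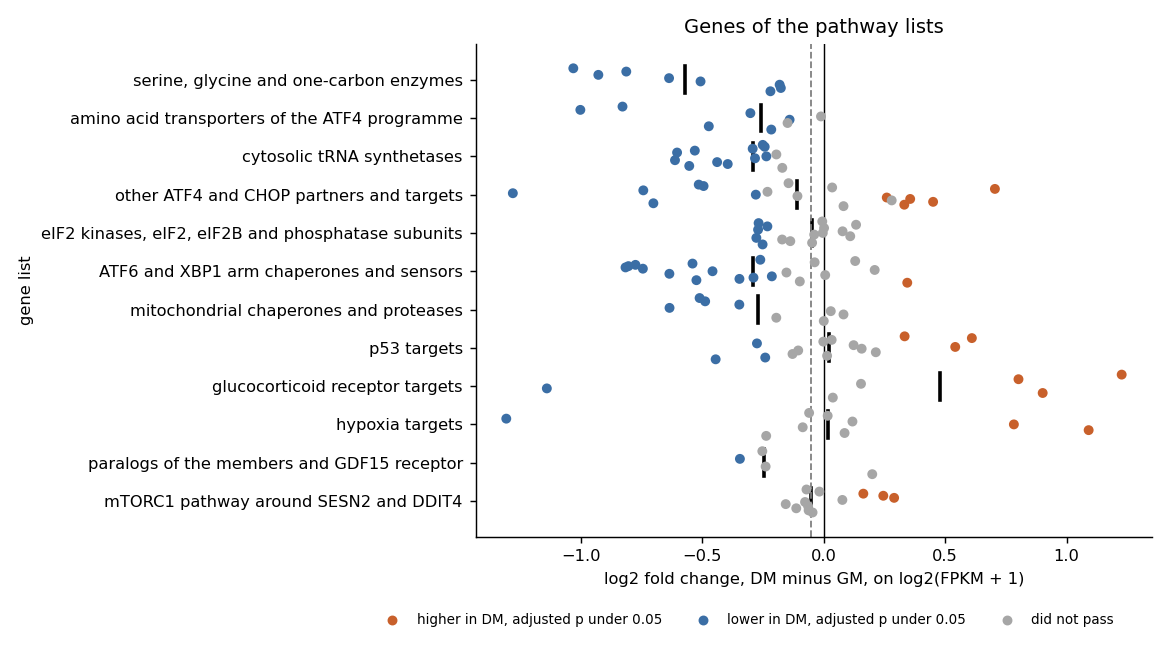
Log2 fold change (DM minus GM, on log2(FPKM + 1)) of every tested gene in the 12 pathway lists, 1 point per gene, coloured by direction where the adjusted p was under 0.05 and grey otherwise. The short black bar is the median of a list, lowest for the serine, glycine and one-carbon enzymes (−0.57) and highest for the glucocorticoid receptor targets (0.48), and the dashed line is the median of all tested genes.

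The m6A values are fold enrichments, the ratio of IP over input reads in a peak, from 1 list per group called on pooled libraries. They carry no replicate error, so no difference between the lists was tested. Peaks were paired where exactly 1 GM peak and 1 DM peak overlapped, and a change was taken as a ratio over 1.5. Of 10239 pairs over all genes 1458 were higher and 1104 lower in DM (14.2% and 10.8%, or 25.0% in all), and the median ratio was 1.05. The members had 7 such pairs, of which 2 were higher and 1 was lower. The 2 were GDF15, chosen for this ratio, and the 5′ UTR pair of SESN2, whose GM peak is weakly supported. Positions refer to the assembly ARS-UCD1.2.

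GDF15 lies on chromosome 7 from 4778258 to 4780515, on the minus strand. Its GM peak covered the last 446 bases of the gene, chr7:4778258-4778703, annotated to the 3′ UTR, with a fold enrichment of 3.39. Its DM peak began at the same 3′ end, reached 742 bases to chr7:4778258-4778999 and had a fold enrichment of 33.0. The ratio was 9.73, the third highest of the 10239 pairs. GDF15 was chosen for this difference, so its rank and its place beside pairs of its level follow from the choice and test nothing. The GM peak is near the median of its list (3.27), while 75 of the 20790 DM peaks have a fold enrichment as high as 33.0. The log10 p of the peak was −9.96 in GM and −12.9 in DM, where 49.7% of GM peaks and 57.6% of DM peaks had a larger p. The shared stretch is the whole GM peak but 60.1% of the DM peak, so the values compare partly unlike stretches of RNA. Ratios spread more among weakly expressed genes. Of the 2304 pairs in genes under 2 FPKM the central 95% ran from 0.278 to 3.90, and of the 2040 pairs in genes between 5 and 10 FPKM, where GDF15 falls, from 0.452 to 2.21.

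**Figure D4:**
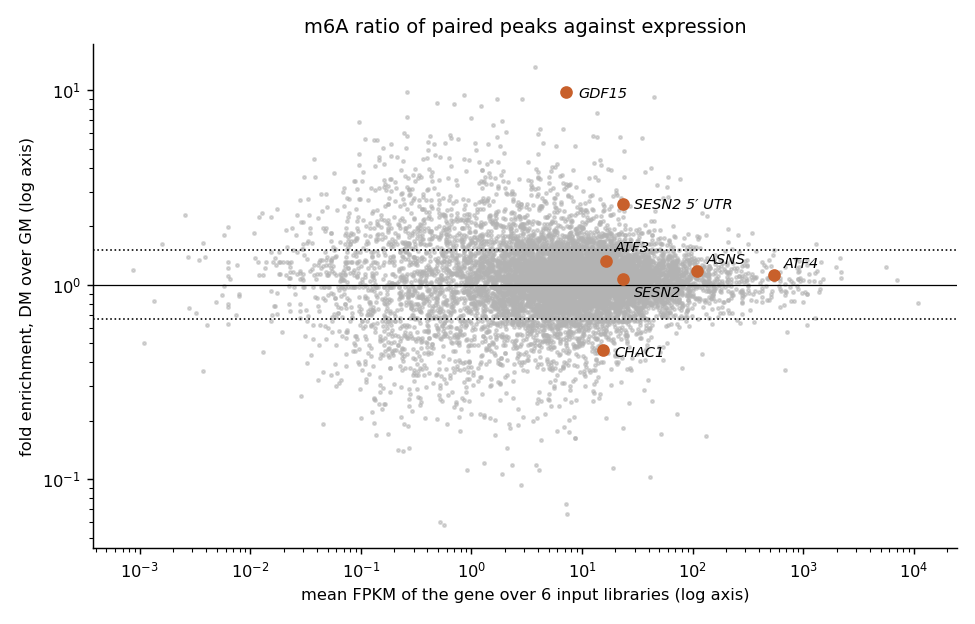
Ratio of fold enrichment, DM over GM, of each pair of peaks (log axis) against the mean FPKM of its gene over 6 input libraries (log axis), with the 7 pairs of the members as large points and the dotted lines at 1.5-fold. GDF15, which was chosen for this difference, lies at 9.73 above the other pairs at its level, SESN2 in the 5′ UTR at 2.60 and CHAC1 at 0.461.

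The m6A of the 3 transcription factors differed by less than 1.5-fold. ATF4 (chromosome 5, 110946624 to 110948715, plus strand) had 1 peak at its 3′ end in each list, 354 bases in GM and 412 in DM. Its fold enrichment was 6.87 in GM and 7.69 in DM, a ratio of 1.12, with log10 p of −6370 and −5910. ATF3 (chromosome 16, 70924511 to 70937490, minus strand) had 1 peak over several exons in each list, with fold enrichment 4.77 and 6.35, a ratio of 1.33. Its DM peak was longer, 1633 bases against 1188, with 1 further exon block of 108 bases and 2 shared blocks that reached further.

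DDIT3 (chromosome 5, 55955676 to 55960509, plus strand) had no peak under its own name. A peak named MARS lay wholly inside the DDIT3 interval in both lists, in 4 blocks that ended at the last base of DDIT3, chr5:55956362-55960509 in GM and chr5:55956303-55960509 in DM. MARS spans 55960451 to 55988093, so all but 59 bases of this stretch are outside it. The fold enrichment of this peak was 6.23 in GM and 6.88 in DM, a ratio of 1.10. It was found by position after the values were seen and is not counted among the 7 pairs, since the shared 59 bases tie it to a second MARS peak.

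CHAC1 (chromosome 10, 36485672 to 36488431, plus strand) was the only member with a paired peak more than 1.5-fold lower in DM. Its 3′ UTR peak was at 10.9 in GM and 5.02 in DM, a ratio of 0.461, and the peaks covered nearly the same bases, with 88.1% of the GM peak and 97.4% of the DM peak shared. The GM value is above that of 93.2% of GM peaks. A second, weak GM peak with a fold enrichment of 1.48 in the 5′ UTR had no counterpart in DM.

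SESN2 (chromosome 2, 125113996 to 125132377, minus strand) had a 5′ UTR peak that was at 6.53 in GM and 17.0 in DM, a ratio of 2.60. The GM peak has a p of 0.05, the largest that the list holds, and the DM peak a p of 8.5e-05. Their log10 false discovery rates are −0.639 and −3.48, so the GM value of this ratio is weakly supported. At the other end of the gene a pair over the last exons was at 2.55 and 2.74, a ratio of 1.07. The GM peak at the very 3′ end, at 3.57, met 2 DM peaks, at 2.95 and 1.16. ASNS (chromosome 4, 15128694 to 15276513, minus strand) had 1 short peak at its 3′ end, 180 bases in GM and 240 in DM, with fold enrichment 2.03 and 2.39, a ratio of 1.18.

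TRIB3 and DDIT4 had fewer and longer peaks in DM. TRIB3 (chromosome 13, 60634440 to 60645432, minus strand) had 4 GM peaks, with fold enrichment 1.55, 2.08 and 1.99 from the 3′ end inwards and 1.66 at the 5′ end. A single DM peak of 1375 bases at 2.43 overlapped the first 3, and the 5′ peak had no counterpart. DDIT4 (chromosome 28, 28323892 to 28325899, plus strand) had GM peaks of 628 and 389 bases at 4.03 and 3.74, both inside a DM peak of 1344 bases at 4.82. Across the members 11 of 15 GM peaks and 10 of 11 DM peaks were annotated to a 3′ UTR (73.3% and 90.9%). In all tested genes 44.2% and 47.6% of the peaks were. Each peak carries a single label, also where it covers several exons. The ATF3 DM peak, labelled 3′ UTR, had 4 exon blocks that reached 12831 bases inwards from the 3′ end. The TRIB3 DM peak, labelled 3′ UTR, overlapped a GM peak labelled exon. The shares thus count labels and not bases, and a shift towards the 3′ UTR was not tested.

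**Figure D5:**
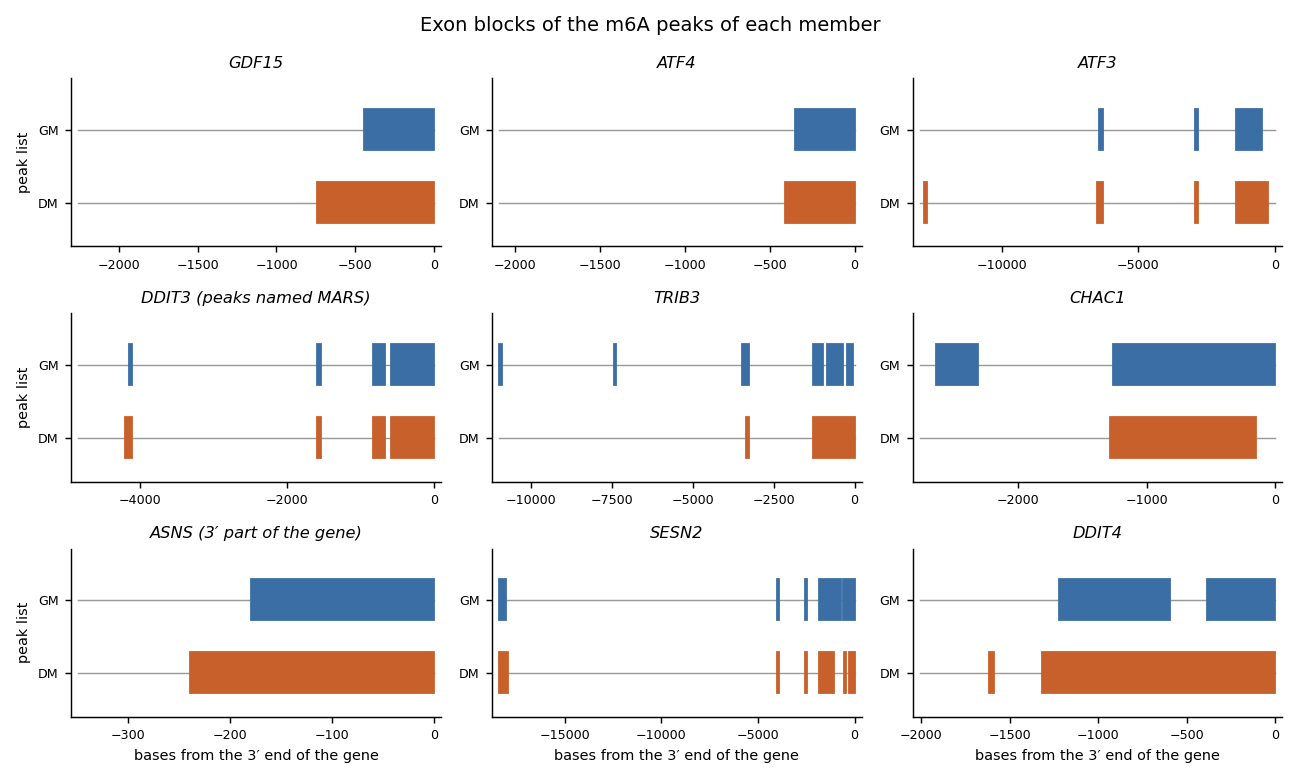
Exon blocks of the m6A peaks of the 9 genes in the GM list (upper row of each panel) and the DM list (lower row), by distance in bases from the 3′ end of the gene, each panel with its own scale. The GDF15 peak reaches 446 bases inwards in GM and 742 in DM, TRIB3 and DDIT4 have fewer peaks in DM, and the DDIT3 panel shows the peaks that the lists name MARS.

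In the 12 pathway lists, 96 of 133 tested genes carried a GM peak and 113 a DM peak (72.2% and 85.0%), beside 70.9% and 78.7% of all tested genes. Of their 97 pairs 7 were higher and 3 lower in DM, (7.22% and 3.09%), beside 12.5% and 9.3% of the 9083 pairs in all tested genes, and the median ratio was 1.04. The highest ratio was in DELE1, which carries mitochondrial stress to the eIF2 kinase HRI: its 5′ UTR peak was at 3.41 in GM and 14.9 in DM. STC2 was at 7.61 and 12.1 in the 3′ UTR, higher in DM while its FPKM fell. BAX, a cell death effector, was at 6.91 and 13.3. The other higher pairs were in MARS, NDRG1, MTOR and EPRS, at ratios of 2.79, 2.34, 1.66 and 1.57. The 3 lower pairs were in NPRL3, EIF2B4 and PER1, at ratios of 0.412, 0.604 and 0.656. All these genes were named after their values were seen.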

How the data were processed

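Expression came from the 6 input libraries and m6A from 1 peak list per group. FPKM values were made by the authors with StringTie after alignment with HISAT2 to ARS-UCD1.2. Read trimming is given as Trimmomatic in the study's methods and as fastp and cutadapt in the submitters' processing notes. The gene table covers 29 autosomes. The deposited peak lists were computed by the authors with exomePeak on the pooled IP and input libraries of a group and annotated with ChIPseeker. Their fold enrichment is a linear ratio of IP over input, their score is the unadjusted p-value of a peak, and another deposited score column holds log10 of the false discovery rate. The authors' GO and KEGG terms in these files were not used. The deposited files give no counts, so depth enters through the spread of 3 libraries per group, and p-values measure the spread between these cultures.

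The 12302 genes whose mean over the inputs reached 0.5 FPKM were tested on log2(FPKM + 1) with limma 3.58.1 in R 4.3.3, two-sided, with moderated variances and a trend, and Benjamini-Hochberg adjustment over all of them. The fit and the pairing were first tested on data with known answers. Peaks were paired in Python 3.11.15 with pandas 2.3.3 by at least 1 shared base of their exon blocks on genes of the same strand, and figures were drawn with matplotlib 3.10.9.

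The members and gene lists were chosen with earlier results of these data known. In each list the 2 highest and 2 lowest genes called at an unadjusted p under 0.05 and over 1.5-fold were named, and other names are marked as chosen after their values were seen. HSPD1 has 2 entries, of which the higher was used. BBC3, TNFRSF10D, TSC22D3, GFRAL, KDR, PTPRC and CD3E were not analysed here. Alternatives covered the pseudocount, filter, scaling, trend, replicate block, thresholds, each library left out, stricter peaks and the pairing rule. Sequences of peaks and transcripts were not used here.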

Additional observations from a re-analysis of the deposited data

How the results depend on the processing

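Members kept their direction in all 13 alternatives of the expression fit. ATF4, ATF3, CHAC1, ASNS and DDIT4 also stayed under an adjusted p of 0.05 (limma) in each, with the highest at 0.046 for ATF3, and SESN2 stayed above it, between 0.051 and 0.33. DDIT3 and TRIB3 lost their calls in TPM (log2 fold changes −0.058 and −0.075) and with median-ratio size factors (−0.12 and −0.13). The replicate numbers did not pair the samples (correlations of deviations −0.079, −0.124 and −0.208), and with a replicate block 608 genes were called higher and 865 lower, while DDIT3 lost its call (−0.18, limma, adjusted p = 0.064). Leaving out each library in turn, DDIT3 ran from −0.20 to −0.15 and TRIB3 from −0.24 to −0.16. GDF15 lay between 0.07 and 0.28 in all 13. Genes called higher went from 603 to 1060 in TPM, and over 2-fold 232 were higher and 275 lower. In the 12 lists 7 genes were called higher and 19 lower, and 2 and 5 over 2-fold. By adjusted p alone 58 list genes fell and 17 rose, and 37 and 28 in TPM, where the scale of all genes shifted by 0.11 (log2). Counting every overlapping combination of peaks gave 4405 higher and 2426 lower, and a change over 2-fold gave 549 and 480. The ratios of GDF15, CHAC1 and the SESN2 5′ UTR kept their side of 1.5-fold in the alternatives that gave a value, and a false discovery rate under 0.001 left no SESN2 5′ UTR pair. The causes were not tested. A peak has 1 value per group, and low FPKM limits the precision of both its parts.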

Other observations

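Among 6 tested targets of the glucocorticoid receptor 3 rose and 1 fell, with a median log2 fold change of 0.48, beside 16.1% and 26.7% of all tested genes, and in TPM 4 rose and 1 fell. FKBP5, a co-chaperone of the receptor, rose from 5.92 ± 0.359 to 15.2 ± 0.296 FPKM (n = 3 each, limma, adjusted p = 2.1e-06). SGK1, a kinase, rose by 0.90 on the log2 scale and the clock gene PER1 by 0.80, while ERRFI1, an inhibitor of the EGF receptor, went from 64.1 ± 4.27 to 29.1 ± 7.22 FPKM (n = 3 each, limma, adjusted p = 0.00082).

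Of 9 tested hypoxia targets 2 rose and 1 fell (22.2% and 11.1%, beside 16.1% and 26.7% of all tested genes). In TPM 4 rose and 1 fell. EGLN3, a prolyl hydroxylase, rose by 1.09 on the log2 scale and NDRG1 by 0.78. ADM, the vasoactive peptide adrenomedullin, went from 39.5 ± 1.27 to 15.4 ± 1.52 FPKM (n = 3 each, limma, adjusted p = 4.8e-06). NDRG1 also had a higher m6A ratio, with a 3′ UTR peak at 1.49 in GM and 3.49 in DM, and was named for it after its values were seen.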
